A study of Mus musculus with 8 samples.

Results

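The heat shock proteins and their DnaJ (J-domain) partners are molecular chaperones, and 68 of the 30639 genes measured in these livers belong to them. They were taken as the protein-coding genes whose symbol starts with Hspa, Hspb, Hspd, Hspe, Hsph, Hsp90, Dnaja, Dnajb or Dnajc, each read from its brightest probe set (by the mean of all 8 arrays) among those that the platform annotation gives to that gene alone. By symbol they comprise 12 Hspa genes (Hsp70 and relatives), 2 Hsp90 genes, 8 Hspb genes (small heat shock proteins, and Hspb11) and Hsph1. The rest are the 2 mitochondrial chaperonin genes Hspd1 and Hspe1, 3 Dnaja, 13 Dnajb and 27 Dnajc genes. RefSeq lists 72 such genes, and the other 4 (Dnaja1, Dnajc19, Hspa1b and Hsp90ab1) had no probe set of their own among those used. Total RNA was taken from whole livers of male C57BL/6 mice, and its signal was measured on an Affymetrix array for each mouse. All 8 mice ate a high fat diet for 13 weeks, a diet model of high blood cholesterol. Of these, 4 had been given 5 intraperitoneal injections of anti-miR-128-3p, a compound that blocks the microRNA miR-128-3p, and 4 had been given control injections, described as vehicle in one field. The treatment field names the microRNA rather than its inhibitor, and the groups here follow the sample titles. The dose and chemistry of the inhibitor, the age of the mice and the time between injection and dissection are not given in these sources, and mice on another diet were not analysed here.

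Hsp70 chaperones bind unfolded stretches of other proteins in cycles of ATP hydrolysis, which J-domain proteins start and nucleotide exchange factors end. Hsp90 acts later, on partly folded clients such as kinases and steroid receptors, and small heat shock proteins hold unfolded proteins without using ATP. In the cytosol the transcription factor HSF1 raises Hspa1a, Hsp90aa1, Hsph1 and Dnajb1 when proteins misfold, as on heating, whereas the chaperones of the endoplasmic reticulum, on which the liver's secretion of plasma proteins depends, are raised by the unfolded protein response.

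Promoter stretches that hold the motifs of those responses are shown first, for genes described below, after the inhibited microRNA. The mature microRNA is from RefSeq (GRCm38.p6) and is encoded at chr1:128202404-128202424 on the plus strand and at chr9:112118644-112118664 on the minus strand. Its seed, bases 2 to 8, is in capitals.
miR-128-3p: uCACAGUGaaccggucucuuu
Promoter windows of RefSeq (GRCm38.p6), from 250 bases before to 50 bases after an annotated transcript start, were searched on both strands for 3 motifs. The heat shock element was taken as GAA, TTC and GAA with 2 free letters (N) between units, and its shorter form as GAA and TTC with 2 free letters between them, so that each full match holds a unit pair of this kind. The endoplasmic reticulum stress response element was taken as CCAAT and CCACG with 9 free letters between them. A window was found for 55 of the 68 genes. Capitals in the following stretches mark matches, and strand is that of the gene.
Hspe1, chr1:55088034-55088101, plus strand, heat shock element: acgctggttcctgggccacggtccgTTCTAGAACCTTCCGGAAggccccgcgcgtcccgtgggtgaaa
Hsph1, chr5:149636288-149636308, minus strand, heat shock element: gctgcagaTTCTGGAAAGTTC
Dnajb6, chr5:29735827-29735889, plus strand, heat shock element: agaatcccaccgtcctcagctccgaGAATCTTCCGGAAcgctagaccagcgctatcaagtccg
Hspb1, chr5:135887777-135887854, plus strand, shorter form: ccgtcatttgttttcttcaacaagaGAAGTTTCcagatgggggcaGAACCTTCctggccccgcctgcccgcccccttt
Hspa1a, chr17:34972228-34972285, minus strand, shorter form: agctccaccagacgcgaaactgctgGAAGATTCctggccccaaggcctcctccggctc
Hspa5, chr2:34772000-34772068, plus strand, endoplasmic reticulum stress response element: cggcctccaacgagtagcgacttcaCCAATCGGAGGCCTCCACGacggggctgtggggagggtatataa
Hsp90b1, chr10:86705508-86705681, minus strand, endoplasmic reticulum stress response element: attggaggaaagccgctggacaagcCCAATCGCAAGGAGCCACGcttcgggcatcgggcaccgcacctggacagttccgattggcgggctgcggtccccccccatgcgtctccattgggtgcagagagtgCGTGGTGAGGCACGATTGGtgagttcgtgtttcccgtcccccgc
Dnajc3, chr14:118937802-118937870, plus strand, endoplasmic reticulum stress response element: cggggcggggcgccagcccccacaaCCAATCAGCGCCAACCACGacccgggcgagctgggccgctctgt
The Hspe1 stretch holds 2 overlapping matches. Hspd1, whose promoter faces that of Hspe1, has 2 matches in its own window, which may be the same bases. The Hsp90b1 stretch holds 2 matches on opposite strands. The Hsph1 match lies just after the start of a transcript. The full heat shock element was found in 0.603% of all 32851 windows and in 8.57% of the 70 windows of chaperone genes. The latter were windows of 4 of the 55 genes (Dnajb6, Hspd1, Hspe1 and Hsph1). The shorter form was in 7.86% of all windows and in 20% of the 70 windows of chaperone genes, those of 12 genes. The endoplasmic reticulum element was in 0.119% of all windows and in 4.29% of those of chaperone genes, those of Hspa5, Hsp90b1 and Dnajc3. A match is a run of letters and was not tested for binding.

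Values are log2 signals, and differences are anti-miR-128-3p minus control with the standard error (SE) of limma, a linear model with variance shared across genes. The array medians lay between 5.04 and 5.12, against 4.32 to 4.48 for the array medians of negative control probes, and arrays correlated at 0.992 to 0.996 across genes. The hepatocyte gene Alb was at 13.96 ± 0.05 in anti-miR livers and 13.92 ± 0.04 in control livers (mean ± SD, n = 4 each), and the 7 measured hepatocyte markers had a median difference of -0.02. Of the markers of other cells, 8 of 8 Kupffer cell genes were higher in anti-miR livers (median 0.61), 5 of 5 smooth muscle genes higher (0.43), 5 of 8 stellate cell genes higher (0.11), 7 of 8 endothelial genes lower (-0.16), 7 of 7 neutrophil genes lower (-0.35) and 5 of 5 skeletal muscle genes lower (-0.07). None of these passed the test. Control liver 1 was the highest of the 8 livers for every one of these neutrophil and skeletal muscle genes. The neutrophil genes, each minus its mean over the 8 livers, averaged 1.85 there. They averaged -0.52 to -0.11 in the other controls and -0.47 to -0.01 in anti-miR livers. Against those other controls alone, the neutrophil genes were not lower in anti-miR livers. The skeletal muscle genes averaged 0.31 in control liver 1 and at most 0.02 in any other liver. The stellate cell genes were split. Col1a1 (1.62 ± 0.41) and Col3a1 (1.22 ± 0.35) were higher without overlap of the groups, while 3 genes were lower, among them Reln (-0.29 ± 0.09). Of the 8, 4 had an unadjusted limma p under 0.05 (50%, against 7.63% of all genes). Groups did not overlap for 2 (25%, against 4.41%). In whole liver, fewer cells of a type and less RNA per cell cannot be told apart. The precursor probe sets of the microRNA were at 4.83 ± 0.16 in anti-miR and 4.99 ± 0.09 in control livers for Mir128-1, and at 4.35 ± 0.27 in anti-miR and 4.22 ± 0.05 in control livers for Mir128-2. They do not measure the mature microRNA that the inhibitor binds, so they check neither the labels nor the inhibition. Titles number the mice within each group and each array was taken as 1 mouse.

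No chaperone gene passed the test in either direction. limma called 0 of the 68 at a Benjamini-Hochberg adjusted p under 0.05 (background 0% of all 30639 genes), and the smallest adjusted p among them was 0.575. At an unadjusted p under 0.05 there was 1 gene, Dnajc8 (1.47%), against a background of 7.63%. Groups did not overlap for 2 genes, Dnajc8 and Dnajb6 (2.94%, background 4.41%). Both were higher in every anti-miR liver than in any control liver, a pattern that 2.52% of all genes showed in that direction, and both overlapped once arrays were centred on their medians. Of these shares, only that of genes higher without overlap, 2.94%, was above its background, and by less than 1 gene in 68. In direction 42 were lower and 26 higher in anti-miR livers, with a median difference of -0.02, against -0.0017 over all genes, of which 15605 were lower. Over the 19064 protein-coding genes, to which all 68 belong, the median was -0.0078. Of these 54.8% were lower, against 61.8% of the chaperone genes. An unadjusted limma p under 0.05 was found for 6.91% of protein-coding genes, and 3.94% did not overlap. Without anti-miR liver 1 the chaperone median was -0.0093, with 37 lower, against -0.0064 over all genes. It was -0.0149 without control liver 1 and -0.0161 without anti-miR liver 3, against 0.0061 and 0.0046 over all genes. The differences ran between -0.32 for Hspa1a and 0.29 for Dnajc12, and 53 of the 68 were smaller than the gene's own pooled SD. The 95% interval of the difference lay within 0.5 (1.41-fold) of 0 for 58 genes and within 1 for all 68. Leaving out 1 liver gave 0 genes at an unadjusted p under 0.05 without anti-miR liver 1, 3 without control liver 1, 4 without anti-miR liver 2 or 3 and 2 without any of the other 4, against 5.61% to 8.52% of all genes. Genes without overlap then numbered 3 to 5, against 6.27% to 8.71% of all genes.

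**Figure D1:**
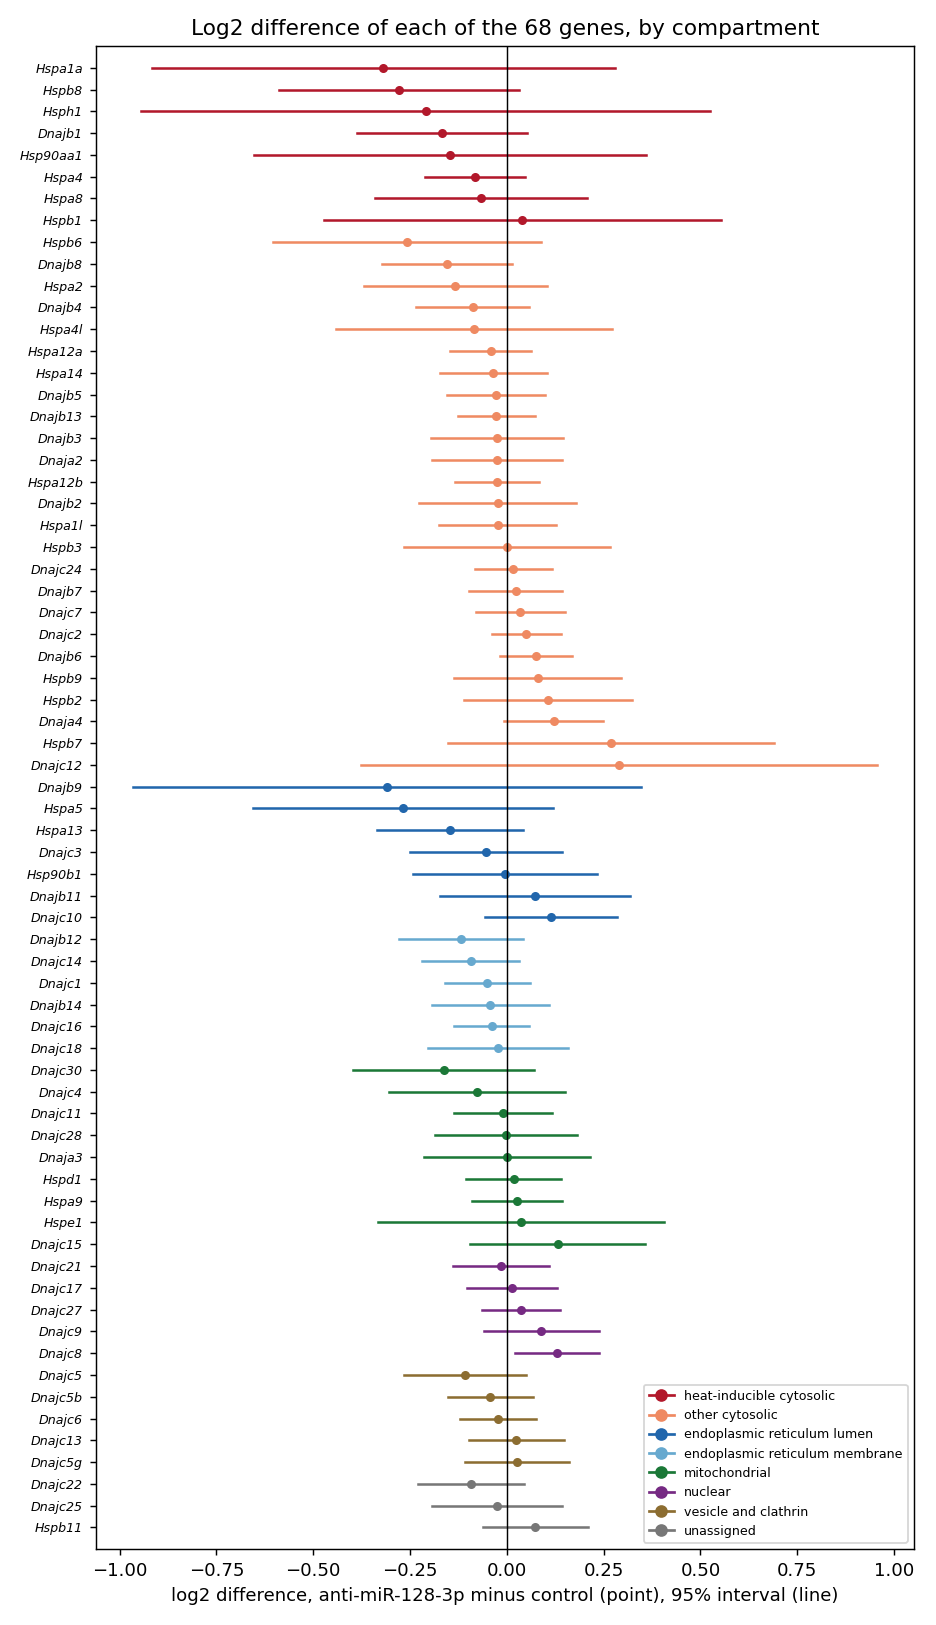
Log2 difference (anti-miR-128-3p minus control) of each of the 68 genes, with the 95% interval of limma as a line, coloured by compartment. Only the interval of Dnajc8, among the nuclear genes, leaves out 0, and the widest intervals belong to Hsph1, Hspa1a, Dnajb9 and Dnajc12.

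The cytosolic genes listed as heat-inducible varied widely from liver to liver. The list also holds Hspa8, a mainly constitutive gene, and Hspa4, which spanned only 0.25 over the 8 livers. Hspa4l, placed outside this list, spanned 0.80, with anti-miR liver 1 lowest and control liver 4 highest. Of the 6 chaperone genes whose 8 livers spanned at least 1 on the log2 scale, 4 were of this list (Hspa1a, Hsp90aa1, Hsph1 and Hspb1). Of the 8 measured, 7 were lower in anti-miR livers and 1 higher, with a median difference of -0.16, and none passed the test. Without Hspa8, 6 of 7 were lower, with a median of -0.17. Hspa1a, the main inducible Hsp70, was at 6.09, 6.75, 6.37 and 6.42 in anti-miR livers 1 to 4, against 6.18, 6.47, 6.76 and 7.52 in control livers 1 to 4. The groups overlapped, and control liver 4 stood above all others. The difference was -0.32 ± 0.26 (1.25-fold lower, limma adjusted p = 0.847), while the 8 livers spanned 2.68-fold. It shrank to -0.06 without control liver 4 and was -0.50 without control liver 1. The probe set that lists Hspa1a together with its near-identical copy Hspa1b was at 6.97, 7.29, 7.15 and 7.15 in anti-miR livers, against 6.94, 7.13, 7.47 and 8.005 in control livers, and was again highest in control liver 4.

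Hsp90aa1, the inducible cytosolic Hsp90, was at 8.70, 9.15, 9.20 and 9.29 in anti-miR livers, against 8.81, 9.24, 8.99 and 9.88 in control livers. The lowest value was that of anti-miR liver 1 and the highest that of control liver 4, and the difference was -0.15 ± 0.22 (limma adjusted p = 0.940). Without control liver 4 it was 0.07, and it was -0.02 without anti-miR liver 1, -0.29 without control liver 1 and -0.23 without control liver 3. Hsph1, an Hsp110 that exchanges nucleotide on Hsp70, was at 6.53, 8.11, 7.82 and 8.19 in anti-miR livers, against 7.68, 7.84, 8.04 and 7.93 in control livers. Anti-miR liver 1 alone was low, and the other 3 lay within or above the control range. Its difference was -0.21 ± 0.32, and 0.17 without anti-miR liver 1, -0.36 without anti-miR liver 2 and -0.38 without anti-miR liver 4. Dnajb1, the J-domain partner of inducible Hsp70, was at 7.03, 7.44, 7.17 and 7.31 in anti-miR livers, against 7.26, 7.34, 7.51 and 7.52 in control livers, a difference of -0.17 ± 0.10 (limma adjusted p = 0.761) that was -0.10 without anti-miR liver 1. Without anti-miR liver 2 it was larger in size, with an unadjusted limma p under 0.05, a level that 8.52% of all genes reached. Hspa8, the constitutive cytosolic Hsp70, was at 12.88, 13.43, 13.34 and 13.50 in anti-miR livers, against 13.28, 13.36, 13.42 and 13.36 in control livers. Its difference was -0.07 ± 0.12, and 0.07 without anti-miR liver 1, -0.11 without anti-miR liver 2 and -0.14 without anti-miR liver 4. Its probe set carries chromosome 6 in its identifier and its other single-gene probe sets 1 or 14. The gene lies on chromosome 9, so that in these probe sets signal of a copy of the gene cannot be told apart. A further probe set lists Hspa8 together with Snord14c, Snord14d and Snord14e. It was at 10.18, 10.85, 10.62 and 10.91 in anti-miR livers, against 10.47, 10.80, 10.71 and 10.84 in control livers. The lowest value was again that of anti-miR liver 1. The probe set of Dnaja1, a J-domain partner of Hspa8, also lists Mir207 and was at 8.46, 9.10, 9.13 and 8.98 in anti-miR livers, against 9.04, 9.08, 9.16 and 9.22 in control livers, again lowest in anti-miR liver 1.

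The small heat shock proteins of this group did not move together. Hspb1, which holds unfolded proteins and binds actin, was at 7.09, 7.25, 7.13 and 7.24 in anti-miR livers, against 6.53, 7.12, 7.06 and 7.84 in control livers. The control livers held both extremes, and the difference was 0.04 ± 0.23. It was -0.16 without control liver 1 and 0.27 without control liver 4. Hspb8, which works with the cochaperone Bag3 in selective autophagy, was at 8.70, 9.33, 9.30 and 9.08 in anti-miR livers, against 9.51, 9.30, 9.47 and 9.23 in control livers. It was lower by 0.28 in anti-miR livers (SE 0.14, limma adjusted p = 0.702), with overlapping groups, and by 0.14 without anti-miR liver 1. Without anti-miR liver 2 or 3 the difference was larger in size, with an unadjusted limma p under 0.05 (8.52% and 7.95% of all genes). The same held for that p with weighted arrays (8.41% of all genes). Hspa4, another Hsp110, was at 9.19 ± 0.11 in anti-miR livers and 9.27 ± 0.01 in control livers (n = 4 each), a difference of -0.08 ± 0.06.

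Taken by liver, anti-miR liver 1 was lowest for 7 of the 8 heat-inducible genes and control liver 4 highest for 5 of them. The score of a liver, the mean over a list of each gene's signal minus its mean over the 8 livers, was -0.46, 0.12, -0.02 and 0.05 in anti-miR livers 1 to 4, against -0.16, 0.02, 0.09 and 0.35 in control livers 1 to 4. The group means, -0.08 in anti-miR and 0.08 in control livers, were closer together than the lowest and highest livers of either group. The median difference of -0.16 became -0.03 without anti-miR liver 1, when 5 of 8 genes were lower, and -0.07 without control liver 4. It became -0.23 without control liver 1. Scores without Hspa8 lay between -0.47 in anti-miR liver 1 and 0.40 in control liver 4. Without anti-miR liver 1 and control liver 4, a choice made after the data were seen, it was 0.06, with 3 of 8 genes lower. Cirbp, the RNA-binding protein gene that cooling induces, had its highest value in anti-miR liver 1 and its lowest in control liver 4, at the opposite ends to the heat-inducible genes. It was at 7.24, 6.89, 7.03 and 6.75 in anti-miR livers, against 6.91, 6.90, 6.82 and 6.66 in control livers (difference 0.16 ± 0.10). Anti-miR liver 1 also had the highest Kupffer marker score, 1.03, against -0.25 to 0.32 in the other anti-miR livers and -1.004 to -0.03 in control livers. A part of body temperature or of cell makeup in these scores was not tested.

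**Figure D2:**
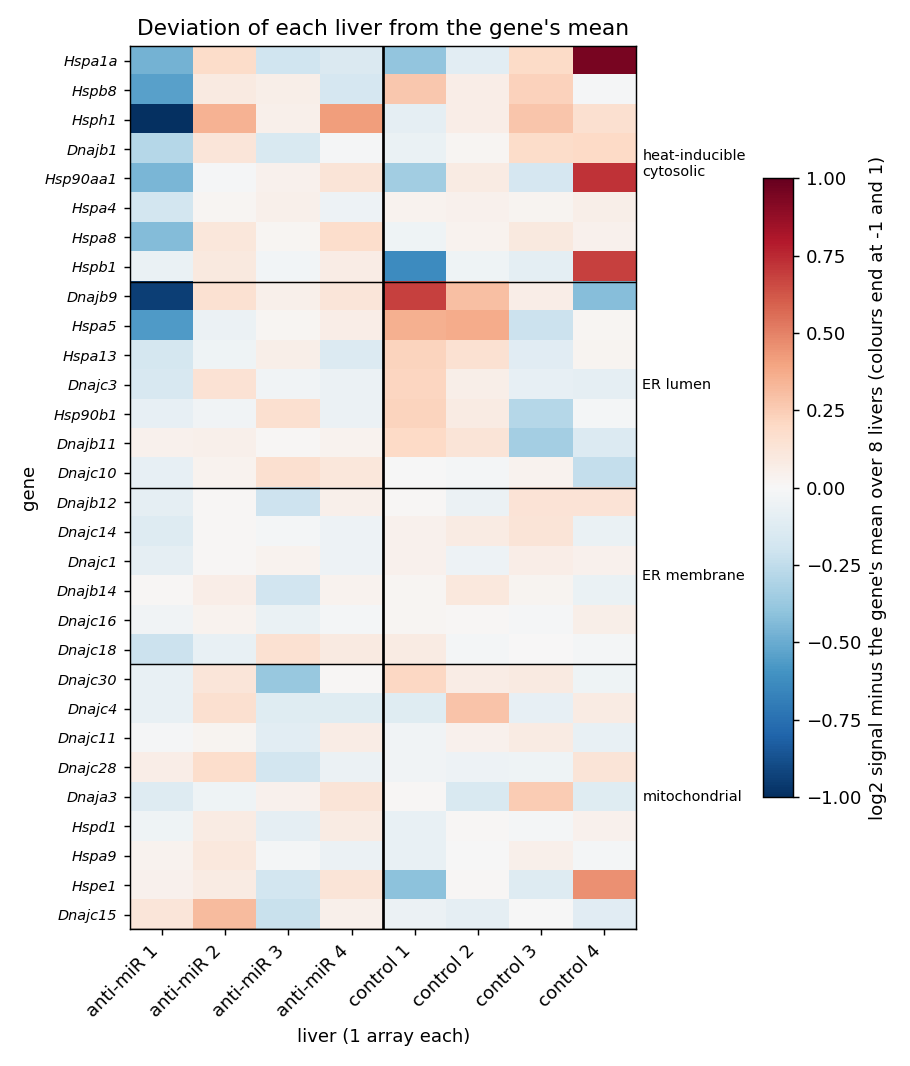
Deviation of each liver (columns, anti-miR-128-3p left of the line, control right of it) from a gene's mean over the 8 livers, in log2 signal, for heat-inducible cytosolic, endoplasmic reticulum and mitochondrial genes (rows). Anti-miR liver 1 is lowest for 7 of 8 heat-inducible genes and 4 of 7 genes of the reticulum lumen, control liver 4 is highest for 5 heat-inducible genes and control liver 1 for 5 lumen genes.

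The other 25 cytosolic genes varied less and lay around 0, with 14 lower and 11 higher in anti-miR livers and a median difference of -0.02. Dnajb6, a J-domain protein that blocks the aggregation of polyglutamine proteins, was at 6.99, 7.01, 7.03 and 7.04 in anti-miR livers, against 6.90, 6.92, 6.98 and 6.98 in control livers. Every anti-miR value was above every control value, but the whole spread of the 8 livers was 0.14 and the difference was 0.08 ± 0.04 (1.05-fold, limma adjusted p = 0.731). Dnaja4, a J-domain protein of the Hsp70 cycle, was at 6.56, 6.37, 6.45 and 6.52 in anti-miR livers, against 6.37, 6.42, 6.36 and 6.27 in control livers. It was 0.12 ± 0.06 higher with overlapping groups (limma adjusted p = 0.686). Hspb6, a small heat shock protein of muscle, was at 7.52, 7.31, 7.55 and 7.67 in anti-miR livers, against 7.88, 7.29, 8.02 and 7.89 in control livers, a difference of -0.26 ± 0.15 (limma adjusted p = 0.767) that was -0.42 without control liver 2. Control liver 2 lay below every anti-miR liver and the other 3 controls above them. Dnajc12, whose product helps to fold phenylalanine hydroxylase in the liver, had the largest positive difference, 0.29 ± 0.29. It was at 7.54, 6.97, 7.12 and 6.80 in anti-miR livers, against 7.78, 6.48, 6.49 and 6.53 in control livers. Control liver 1 was the highest of all 8, and the other 3 controls were lower than every anti-miR liver. Its difference was 0.61 without control liver 1 and 0.15 without anti-miR liver 1, and 0.17 to 0.19 without any one of the other 3 controls. The muscle small heat shock proteins Hspb7 (0.27 ± 0.19) and Hspb2 (0.11 ± 0.10) and the Hsp70 relatives Hspa2 (-0.13 ± 0.10) and Hspa4l (-0.08 ± 0.16) did not pass either. Of all 68 genes, 9 had a mean below the highest array median of the negative controls: Dnajb3, Dnajb7, Dnajb8, Dnajb13, Hspa1l, Hspb3, Dnajc5b, Dnajc5g and Dnajc6. The upper tail of the negative controls reached further, with 95th percentiles of 7.40 to 7.53 by array, and 42 of the 68 means lay below the lowest of these, including those of Hspa1a, Dnajb1, Hspb1, Dnajb6, Dnajc8 and Dnajc12. Dnajb8 is among the 12 genes with the smallest p (3.91, 3.98, 4.12 and 3.97 in anti-miR livers, against 4.16, 4.17, 4.29 and 3.98 in control livers), and at that level its difference of -0.16 ± 0.07 cannot be read as a change in its RNA.

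In the endoplasmic reticulum, 11 of 13 genes were lower and 2 higher in anti-miR livers, with a median difference of -0.05, and none passed. Without control liver 1, 8 of 13 were lower. The 7 genes of the lumen held the larger differences. Hspa5, which encodes BiP, the Hsp70 of the lumen, was at 9.50, 10.01, 10.09 and 10.13 in anti-miR livers, against 10.42, 10.44, 9.85 and 10.09 in control livers. Control livers 1 and 2 lay above every anti-miR liver and control liver 3 below 3 of them. The difference was -0.27 ± 0.17 (1.20-fold lower, limma adjusted p = 0.788), and -0.12 without anti-miR liver 1. Without control liver 3 the difference was larger in size, with an unadjusted limma p under 0.05, a level that 6.25% of all genes reached. Dnajb9, a J-domain partner of BiP that restrains the stress sensor IRE1, was at 8.53, 9.62, 9.53 and 9.59 in anti-miR livers, against 10.15, 9.77, 9.54 and 9.05 in control livers. It spanned 3.08-fold over the livers, with anti-miR liver 1 lowest and control liver 1 highest, and its difference was -0.31 ± 0.29 (limma adjusted p = 0.868). That value was -0.05 without anti-miR liver 1, -0.13 without control liver 1 and -0.50 without control liver 4. Hspa13, another Hsp70 of the reticulum, was at 7.32, 7.45, 7.56 and 7.36 in anti-miR livers, against 7.72, 7.65, 7.38 and 7.52 in control livers, a difference of -0.15 ± 0.08 (-0.10 without control liver 1). That difference too was larger in size without control liver 3, with an unadjusted limma p under 0.05. Hspa13 shared the lowest and the highest liver with Dnajb9.

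Hsp90b1, which encodes GRP94, the Hsp90 of the lumen, was at 11.02, 11.06, 11.26 and 11.04 in anti-miR livers, against 11.32, 11.18, 10.81 and 11.08 in control livers, and its difference was -0.01 ± 0.11, with an interval between -0.24 and 0.23. Among the controls, livers 1 and 2 were the highest and liver 3 the lowest for both Hsp90b1 and Hspa5, and whether the differences of these genes differ was not tested. Without control liver 3 it was -0.10, and without control liver 1 it was 0.07. Dnajb11, a J-domain protein that brings clients to BiP, was at 7.56, 7.57, 7.53 and 7.55 in anti-miR livers, against 7.72, 7.65, 7.18 and 7.38 in control livers. The anti-miR livers were nearly alike while the controls spread over 0.54, and the difference was 0.07 ± 0.11. It was 0.15 without control liver 1, 0.13 without control liver 2, -0.03 without control liver 3 and 0.04 without control liver 4. Dnajc3, a BiP partner that also inhibits the kinase PERK, was at 9.90, 10.21, 10.02 and 9.998 in anti-miR livers, against 10.28, 10.12, 9.98 and 9.97 in control livers, a difference of -0.05 ± 0.09. That difference was 0.0093 without control liver 1, -0.0104 without anti-miR liver 1, and between -0.09 and -0.11 without anti-miR liver 2, control liver 3 or control liver 4. Dnajc10, which reduces disulfides of misfolded proteins, was at 7.31, 7.42, 7.55 and 7.50 in anti-miR livers, against 7.38, 7.37, 7.42 and 7.15 in control livers. It was 0.11 ± 0.08 higher and did not pass, and 0.05 higher without control liver 4. Without anti-miR liver 1 its difference was larger and its groups did not overlap, as for 6.27% of all genes. Control liver 1 was highest for 5 of the 7 lumen genes and anti-miR liver 1 lowest for 4. The lumen score was -0.28, 0.04, 0.06 and 0.01 in anti-miR livers, against 0.27, 0.15, -0.13 and -0.12 in control livers. The lumen median of -0.05 was 0.01 without control liver 1 and -0.01 without anti-miR liver 1. It was -0.11 without anti-miR liver 2, -0.10 without control liver 3 and -0.09 without control liver 4. Control liver 1 also had a neutrophil marker score of 1.85, against -0.47 to -0.01 in anti-miR livers and -0.52 to -0.11 in the other controls, and a part of these cells in the lumen values was not tested.

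All 6 J-domain genes of the reticulum membrane were lower in anti-miR livers, by 0.02 to 0.12, with a median difference of -0.05. Without anti-miR liver 1, anti-miR liver 3 or control liver 1, 5 of the 6 were lower. Dnajb12, which helps to hand membrane proteins to degradation, was at 8.61, 8.71, 8.50 and 8.75 in anti-miR livers, against 8.71, 8.65, 8.84 and 8.84 in control livers, a difference of -0.12 ± 0.07 (limma adjusted p = 0.770), or -0.07 without anti-miR liver 3. Dnajc14, which affects the export of dopamine receptors from the reticulum, was at 7.15, 7.29, 7.26 and 7.23 in anti-miR livers, against 7.32, 7.36, 7.41 and 7.22 in control livers, a difference of -0.09 ± 0.06 (limma adjusted p = 0.764). In both genes the groups overlapped. Without control liver 4 those of Dnajc14 did not, as for 7.47% of all genes, and its difference was larger in size. limma then gave Dnajc14 an unadjusted p under 0.05, as for 7.05% of all genes. Dnajb14, Dnajc1, Dnajc16 and Dnajc18 were lower by 0.02 to 0.05, less than the distance between the lowest and highest livers of either group. The score of the 6 genes was -0.09, 0.01, -0.05 and 0.01 in anti-miR livers, against 0.04, 0.01, 0.06 and 0.02 in control livers. Every control score lay above every anti-miR score, but livers 2 of the groups were nearly level, at 0.0106 in anti-miR and 0.0121 in control. This score was not tested.

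Set against each other, the medians of the 33 cytosolic and 13 reticulum genes lay close together. The cytosolic median difference was -0.03, with 21 lower and 12 higher, against -0.05 for the reticulum, and the cytosolic minus the reticulum median was 0.02. This gap was smallest without control livers 1 or 2 (0.0083 and 0.0060) and larger without anti-miR livers 2 or 3 (0.0399 and 0.0478) or control livers 3 or 4 (0.0406 and 0.0507). The cytosolic median was -0.0082 without anti-miR liver 1. Per liver, the cytosolic score minus the reticulum score was 0.10, -0.02, -0.02 and 0.03 in anti-miR livers, against -0.15, -0.14, 0.08 and 0.14 in control livers. The anti-miR livers fell within the range of the control livers. The controls lay further apart for the heat-inducible score minus the lumen score, which was -0.18, 0.08, -0.08 and 0.04 in anti-miR livers, against -0.43, -0.13, 0.22 and 0.47 in control livers. Control liver 1 was low in heat-inducible and high in lumen genes, control liver 4 was the reverse, and anti-miR liver 1 was low in both lists.

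**Figure D3:**
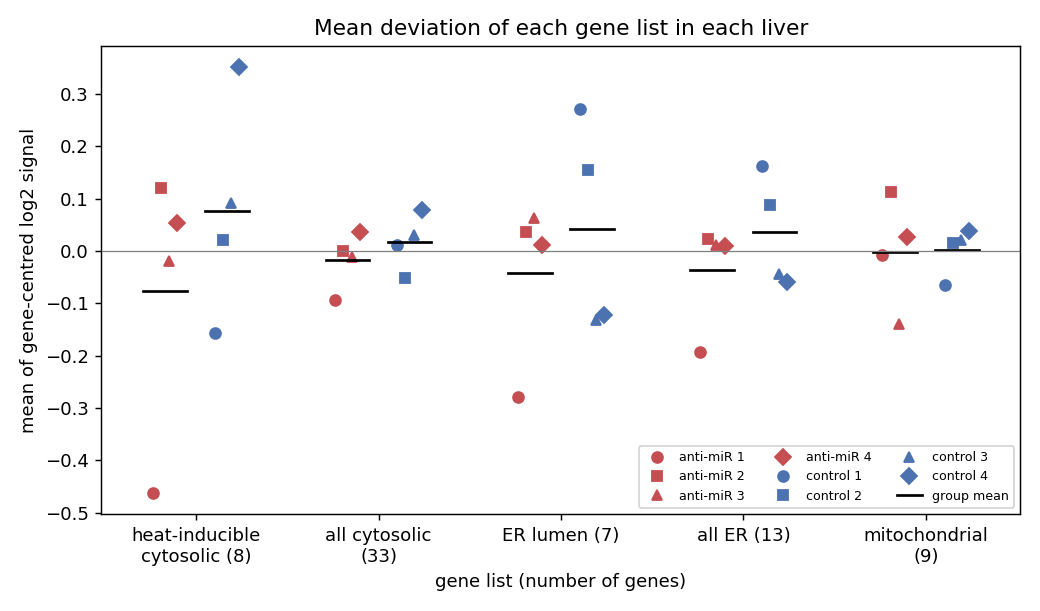
Score of 5 gene lists (the mean over the list of log2 signal minus the gene's mean over the 8 livers) in each anti-miR-128-3p liver (red) and control liver (blue), with a bar at each group mean. The groups overlap in every list shown, and the lowest point is anti-miR liver 1 at -0.46 for heat-inducible genes.

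The mitochondrial Hsp70 and Hsp60 were nearly level across the livers. Of 9 measured genes, 4 were lower and 5 higher in anti-miR livers, with a median difference below 0.01 in size. Hspa9, the mitochondrial Hsp70 (mortalin), was at 10.36, 10.43, 10.31 and 10.27 in anti-miR livers, against 10.25, 10.32, 10.38 and 10.31 in control livers, a difference of 0.03 ± 0.05. Hspd1, the chaperonin Hsp60, was at 10.02, 10.14, 9.97 and 10.14 in anti-miR livers, against 9.99, 10.08, 10.04 and 10.10 in control livers, a difference of 0.02 ± 0.05. The 95% intervals of these genes reached no further than 0.14 in either direction. Hspe1, the lid of the same chaperonin, spread more widely, at 8.004, 8.05, 7.78 and 8.10 in anti-miR livers, against 7.56, 7.97, 7.83 and 8.42 in control livers (0.04 ± 0.16). Its lowest and highest livers, control livers 1 and 4, were those of Hspb1, whereas Hspd1, which shares its promoter, was at 9.99 and 10.10 there. Dnajc30, a J-domain protein tied to ATP synthase, was at 6.85, 7.04, 6.55 and 6.93 in anti-miR livers, against 7.13, 6.9997, 7.02 and 6.88 in control livers, a difference of -0.16 ± 0.10, or -0.06 without anti-miR liver 3. Anti-miR liver 3 was lowest for 6 of the 9 genes of this list, including Dnajc30 and Hspd1.

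Among the 5 nuclear J-domain genes, 4 were higher and 1 lower, with a median difference of 0.04. Dnajc8, which binds splicing factors, was at 6.31, 6.29, 6.19 and 6.26 in anti-miR livers, against 6.18, 6.18, 6.07 and 6.09 in control livers. All anti-miR values lay above all control values, most narrowly for anti-miR liver 3, at 6.1899, against control livers 1 and 2, at 6.1816 and 6.1830. The difference was 0.13 ± 0.05 (1.09-fold, limma adjusted p = 0.575). Dnajc9, a histone chaperone, was 0.09 ± 0.07 higher and did not pass. Of the 5 genes of vesicles and clathrin, 3 were lower and 2 higher. The synaptic vesicle and secretory chaperone Dnajc5 was at 7.80 ± 0.12 in anti-miR livers and 7.90 ± 0.07 in control livers (n = 4 each), a difference of -0.11 ± 0.07. Dnajc22 (-0.09 ± 0.06), Dnajc25 (-0.03 ± 0.07) and Hspb11 (0.07 ± 0.06) were placed in none of these compartments.

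**Figure D4:**
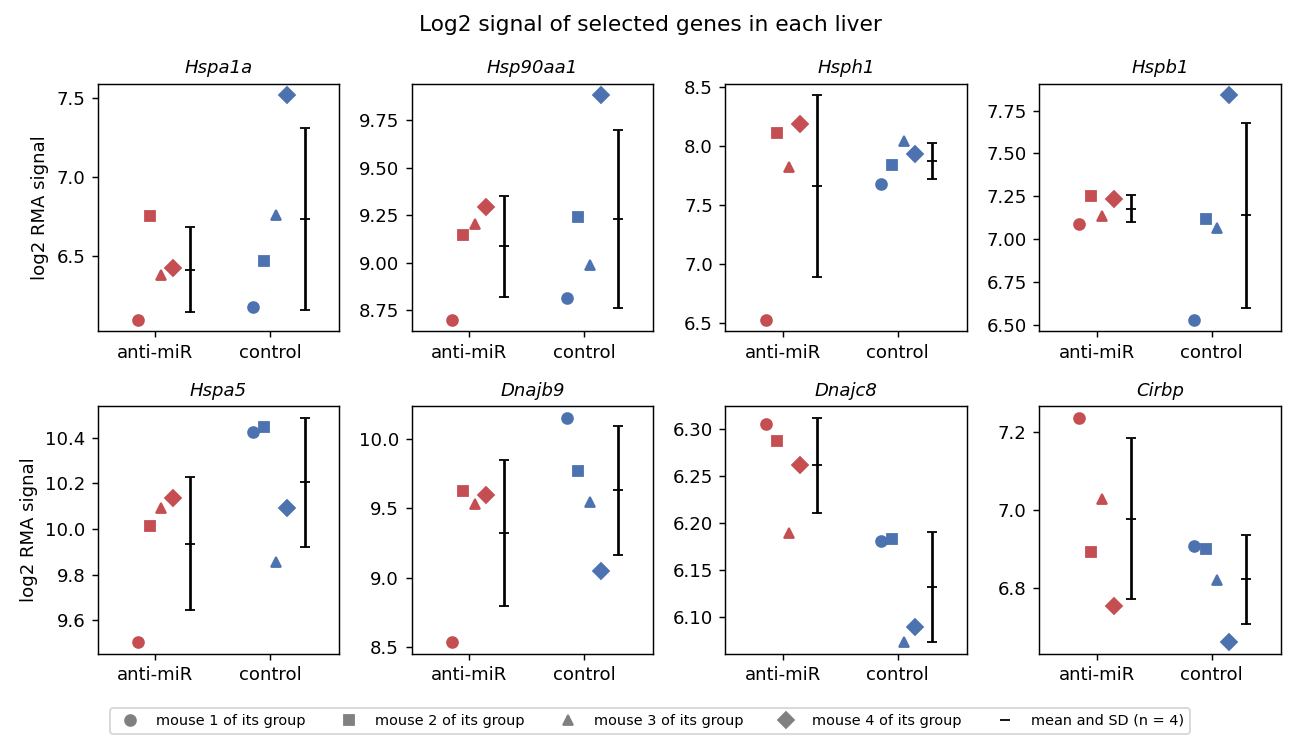
Log2 signal of 8 genes in each anti-miR-128-3p liver (red, left) and control liver (blue, right), with the mean and SD of each group (n = 4) beside the points. The low point of Hsph1 and Dnajb9 is anti-miR liver 1, the high point of Hspa1a, Hsp90aa1 and Hspb1 is control liver 4, and Dnajc8 is the gene shown whose groups do not overlap.

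By family, 11 of 12 Hspa genes were lower in anti-miR livers, with a median difference of -0.07. Without anti-miR liver 1, 9 of 12 were lower (median -0.0452), and 7 of 12 without both anti-miR liver 1 and control liver 4 (-0.0419). Of the Hspb genes, Hspb11 among them, 6 of 8 were higher (median 0.06), of the Dnajb genes 10 of 13 lower (-0.03), and of the Dnajc genes 15 of 27 lower (-0.01). As each liver was left out in turn, the median ran between 0.01 and 0.07 for Hspb, lowest without control liver 2, between -0.06 and -0.03 for Dnajb, and between -0.02 and 0.0034 for Dnajc. Over all protein-coding genes, 10445 of 19064 were lower.

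Regulators and partners of the chaperones were not called by limma either, in any of the lists that follow. Of 4 measured heat shock factor genes 3 were higher and 1 lower. Hsf2 was at 7.26, 7.55, 7.10 and 7.27 in anti-miR livers, against 6.96, 7.11, 7.15 and 7.15 in control livers (0.20 ± 0.09). Hsf5, a testis factor, was at 4.60 ± 0.06 in anti-miR livers and 4.80 ± 0.11 in control livers, with no overlap and a difference of -0.19 ± 0.06 (limma adjusted p = 0.491). Its level was close to the highest array median of the negative controls, 4.48, and below their lowest 95th percentile, 7.40. Groups did not overlap for 4.41% of all genes. Hsbp1, which binds HSF1, differed by 0.02 ± 0.05, and Hsf1 had no probe set of its own. Of 21 cochaperones of Hsp70 and Hsp90, 11 were higher and 10 lower (median 0.01, and -0.0085 to 0.0481 as each liver was left out), with Nudc (0.16 ± 0.08), the exchange factor Bag1 (0.13 ± 0.07) and the kinase cochaperone Cdc37 (0.13 ± 0.07) nearest to the threshold. Of 7 genes of the cytosolic chaperonin, which folds actin and tubulin, 4 were higher, with Cct7 at 7.67 ± 0.11 in anti-miR livers and 7.50 ± 0.08 in control livers (0.16 ± 0.07). Of 9 other genes of mitochondrial protein folding, 6 were lower, and Grpel2, an exchange factor for mortalin, was at 7.32 ± 0.14 in anti-miR livers and 7.12 ± 0.04 in control livers (0.20 ± 0.07).

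Folding enzymes and stress signalling genes of the reticulum were counted as separate lists, and the difference between the lists was not tested. Of 18 folding genes, 13 were higher and 5 lower in anti-miR livers (median 0.03). Without control liver 3, 12 of the 18 were lower (median -0.03), and with any other liver left out the median was 0.0046 to 0.0706. Serpinh1, the collagen chaperone HSP47, was at 5.65, 5.69, 6.07 and 5.85 in anti-miR livers, against 5.60, 5.64, 5.60 and 5.59 in control livers. The groups did not overlap, and the difference was 0.21 ± 0.09 (limma adjusted p = 0.631). Its highest liver, anti-miR liver 3, also had the highest stellate cell marker score, 0.76, against -0.10 to 0.25 in the other anti-miR livers and -0.34 to -0.09 in control livers, and the part of these cells was not tested. Pdia6, a disulfide isomerase, was 0.25 ± 0.14 higher, and Sil1, the exchange factor of BiP, 0.17 ± 0.08 higher. Of 21 signalling genes of the unfolded protein response, 16 were lower and 5 higher (median -0.06). That median was -0.01 without anti-miR liver 1, -0.02 without control liver 1, -0.04 without control liver 2 and -0.11 without control liver 4. The groups overlapped in the scores of both lists, and control liver 1 was the highest in each, at 0.137 for folding and 0.165 for signalling. Xbp1, the transcription factor that IRE1 activates, was at 8.66, 8.96, 9.34 and 9.27 in anti-miR livers, against 9.95, 9.60, 9.49 and 9.33 in control livers. Its difference of -0.54 ± 0.17 had a limma adjusted p of 0.481, and its lowest and highest livers were those of Dnajb9. Creb3l3, a liver transcription factor held in the reticulum membrane, was at 9.04, 9.24, 9.16 and 9.26 in anti-miR livers, against 9.49, 9.32, 9.48 and 9.38 in control livers, without overlap (-0.24 ± 0.06, limma adjusted p = 0.345). Asns, asparagine synthetase and a target of ATF4, went the other way, with overlapping groups (0.79 ± 0.24, limma adjusted p = 0.453). It was at 6.45, 5.55, 6.06 and 5.23 in anti-miR livers, against 5.27, 4.85, 4.90 and 5.11 in control livers. Atf4 itself differed by 0.05 ± 0.08, and a part of ATF4 in the Asns values was not tested.

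Genes that respond to handling and time of day were also listed, since they bear on how alike the livers were when taken. Of 13 immediate early genes 9 were lower in anti-miR livers (median -0.25, -0.08 without control liver 2 and -0.16 without anti-miR liver 2), and Gadd45g was at 7.26, 7.64, 7.87 and 7.82 in anti-miR livers, against 7.69, 8.79, 8.88 and 9.01 in control livers (-0.95 ± 0.28, limma adjusted p = 0.430). Of 14 core clock genes 11 were lower (median -0.12, -0.04 without anti-miR liver 1, and -0.06 to -0.07 without anti-miR liver 4, control liver 1 or control liver 3), and Clock was at 9.23 ± 0.07 in anti-miR livers and 9.50 ± 0.06 in control livers (-0.27 ± 0.05, limma adjusted p = 0.207). A part of either in the chaperone values was not tested.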

How the data were processed

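Total RNA (250 ng per liver) was labelled with biotin for an Affymetrix array, per the labels' protocols. The deposited values are log2 signals made with RMA, per the submitters' processing notes; their version and annotation are not given in these sources. The table held 72688 probe sets, of which 6732 control probe sets were left out. Platform annotation gave exactly 1 gene to 31097 probe sets, with symbols updated through RefSeq, and the brightest probe set of each gene was kept (30639 genes, 361 of them with a choice). The test was that of limma 3.58.1 (R 4.3.3; eBayes defaults, two-sided, no covariate, all 8 arrays), with Benjamini-Hochberg adjustment over all 30639 genes and a threshold of 0.05, after the steps had been tested on simulated data. With 4 arrays a group, their number limits the precision. Each limma p-value sets the group difference against the spread between arrays within the groups, with variance shared across genes. Genes given liver by liver are a set of main chaperones, those whose groups do not overlap and the 12 with the smallest p, and up to 3 genes of each other list by smallest p; Dnajc12 was added after its values were seen. The members and lists were chosen with earlier results of these data known. Alternatives were trend and robust moderation, weighted arrays, leaving out genes dimmer than the median or the 25th percentile, averaging the probe sets of a gene, quantile normalization, centring on array medians, the replicate number as a block and leaving out each array. Tables and plots were made with Python 3.11.15, pandas 2.3.3 and matplotlib 3.10.9.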

Additional observations from a re-analysis of the deposited data

Results flagged for a closer look

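A single liver lay far from the other 3 of its group, by Dixon's criterion for 4 values, for 11 of the 136 groups formed by 68 genes and 2 treatments, and chance alone gives about 1 in 20 groups. Of these 11, anti-miR liver 1 held 3, anti-miR liver 4 held 1, control liver 1 held 3, control liver 3 held 1 and control liver 4 held 3. In log2 signal, anti-miR liver 1 was at 8.53 for Dnajb9, against 9.53 to 9.62 in the other anti-miR livers. It was at 5.71 for Dnajc24 (others 5.64 to 5.65) and at 6.16 for Hspb2 (others 5.88 to 5.91). Anti-miR liver 4 was at 5.29 for Hspa2 (others 4.84 to 4.87). Control liver 1 was at 7.78 for Dnajc12, against 6.48 to 6.53 in the other controls, at 5.94 for Dnajb5 (others 5.75 to 5.78) and at 6.15 for Dnajb4 (others all 6.26). Control liver 3 was at 4.05 for Dnajc5b (others 4.13 to 4.15), whose mean is below the median of the negative controls. Control liver 4 was at 6.97 for Hspa4l, an Hsp110 relative, against 6.30 to 6.41 in the other controls, at 6.94 for Dnajc28 (others 6.75 to 6.77) and at 4.51 for Dnajc27 (others 4.584 to 4.598).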

How the results depend on the processing

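Under all 17 alternatives 0 chaperone genes were called by limma, and the smallest adjusted p of any of them was 0.318. Of 26 genes given liver by liver, 15 kept their sign under every alternative and 11 turned under at least 1. The count of chaperone genes at an unadjusted p under 0.05 was 4 with array weights (5.88%, against 8.41% of all genes), 3 with the replicate number as a block (4.41%, against 7.35%), 1 in the report (1.47%, against 7.63%), and 0 to 4 with 1 liver left out, so that the share lay below that of all genes with the weights and the block too. The count without overlap was 0 with arrays centred on their medians, 3 to 5 with 1 liver left out, and 9 (13.2%, against 10.5% of all genes) without anti-miR liver 1 and control liver 4, an alternative chosen after the data were seen. Over all genes limma called 0 to 1 with 1 liver left out (1 without control liver 4). Livers with the same number in both groups did not deviate together (correlations -0.03, -0.02, -0.08 and -0.12), so the numbers were not taken as pairs, and the replicate block changed no call. Hsp90b1 turned to 0.0196 with array weights. Without anti-miR liver 1 and control liver 4, Hspa1a turned to 0.0494, Hspa8 to 0.0702, Hsp90aa1 to 0.20, Hsph1 to 0.19 and Hsp90b1 to 0.0145, and the cytosolic median was 0.01. With 1 liver left out, the differences ranged between -0.14 and 0.0675 for Hspa8, -0.38 and 0.17 for Hsph1, -0.29 and 0.0708 for Hsp90aa1, -0.16 and 0.27 for Hspb1, -0.0997 and 0.0692 for Hsp90b1, -0.0289 and 0.15 for Dnajb11, -0.11 and 0.0093 for Dnajc3, -0.0039 and 0.0513 for Hspa9, -0.0066 and 0.0497 for Hspd1, and -0.0937 and 0.1949 for Hspe1. The cause of these turns was not tested beyond the livers left out. Signal over background limits the 9 genes below the median of the negative controls most, and 42 genes lay below their 95th percentile.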
